A study of Mus musculus with 84 samples.

Results

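Polycomb-only promoters of control adipocytes were taken as promoters with a peak of H3K27me3 in at least 8 of 10 chow-fed control libraries and a peak of H3K4me3 in at most 2 of 10. A promoter was the region within 2000 bp of any TSS of 1 protein-coding gene in the GENCODE annotation of GRCm38, and an overlap of 1 bp or more with a peak counted as marked. Of 21851 promoters, 1426 (6.53%) met the rule. They were 53.0% of the 2693 promoters with H3K27me3 in at least 8 control libraries, of which a further 443 were bivalent (H3K4me3 in at least 8 control libraries) and 824 had H3K4me3 in 3 to 7. The H3K27me3 and H3K4me3 peaks of the control libraries therefore chose the set, and the levels of both marks in controls are a description. The windows of 82 Polycomb-only promoters overlapped the window of another gene, and those of 49 overlapped that of another Polycomb-only promoter.

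H3K27me3 is written by Polycomb repressive complex PRC2 and read by PRC1, and marks genes that a cell keeps silent, in particular developmental regulators of other lineages. H3K4me3 is placed at the start of active genes, H3K27ac at active promoters and enhancers, and H3K4me1 mainly at enhancers. Promoters that carry H3K27me3 together with H3K4me3 are called bivalent and are regarded as poised, whereas those with H3K27me3 alone are regarded as silenced. In mammals Polycomb proteins gather mainly at CpG islands, stretches of DNA dense in unmethylated CpG dinucleotides.

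Nuclei came from epididymal fat of AdipoERCre x NuTRAP mice, on a background that the labels spell C576BL6. In these mice a tamoxifen-inducible Cre under an adipocyte promoter switches on a biotin tag at the nuclear envelope and a ribosomal tag, and all groups, controls included, carried both transgenes and were given tamoxifen 2 times at 4 to 5 weeks of age, followed by a washout of 2 weeks. The 12-week cohort held C (chow, 18 weeks old), H (12 weeks of high-fat diet (HFD), 18 weeks old), CC_s (chow, 26 weeks old) and HC (12 weeks of HFD, then 8 weeks of chow, 26 weeks old). The 25-week cohort held CC_l (chow, 31 weeks old), HH (25 weeks of HFD, 31 weeks old), CCC (chow, 39 weeks old) and HHC (25 weeks of HFD, then 8 weeks of chow, 39 weeks old). C, CC_s, CC_l and CCC were the controls, H and HH the obese groups and HC and HHC the weight loss (WL) groups. CUT&Tag, in which an antibody guides a transposase to a histone mark, gave 84 peak lists, 20 for H3K27me3, 21 for H3K4me3, 21 for H3K27ac and 22 for H3K4me1, with 2 or 3 biological replicates per group and mark. The tag depends on Cre activity in adipocytes, and nuclei were pulled down in bulk, so fewer marked nuclei and less mark per nucleus cannot be told apart.

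Libraries may differ in depth, which is unknown because peak lists hold no read totals, and precision rests on the number of libraries. They held 11249 to 46397 peaks, and HHC replicate 3 had the most for each of the 4 marks. For 4 H3K4me3 libraries (CC_l replicate 2, HH replicates 2 and 3, and CCC replicate 3) the title and the treatment field of the labels name different groups. Titles were used, and H3K4me3 results are also given without these libraries, which leaves HH without a H3K4me3 library and CCC with 1, assumed in the fit to vary like the other groups. Of 24 macrophage markers, 18 and 17 had H3K4me3 in the libraries titled HH, 7 in CC_l replicate 2 and 4 in CCC replicate 3, beside 6 in CC_l replicate 1 and 7 in CCC replicate 1. Of 20 adipocyte marker promoters, 17 to 20 had H3K4me3 in control libraries and 14 to 20 in diet libraries, and 0 were Polycomb-only.

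The upstream sequences of 6 promoters are shown because they represent the ends of the range described below. Each is the 250 bases before the most upstream TSS, read 5′ to 3′ on the strand of the gene from GRCm38, with every CpG in capitals. Cdx2, an intestinal homeobox factor (chr5:147307271-147307520, minus strand, 11 CpG), Grik3, a kainate-type glutamate receptor subunit (chr4:125490450-125490699, plus strand, 42 CpG), and Wnt7a, a secreted Wnt ligand (chr6:91411364-91411613, minus strand, 32 CpG), had H3K27me3 in all 20 libraries and H3K4me3 in none of 21. C1qb, a complement subunit made by macrophages (chr4:136886188-136886437, minus strand, 6 CpG), Tnf, the cytokine TNF (chr17:35202008-35202257, minus strand, 10 CpG), and Ly9, a receptor of lymphocytes (chr1:171607411-171607660, minus strand, 3 CpG), had H3K27me3 in 4, 4 and 1 of 10 diet libraries and peaks of the active marks in more diet than control libraries.
Cdx2: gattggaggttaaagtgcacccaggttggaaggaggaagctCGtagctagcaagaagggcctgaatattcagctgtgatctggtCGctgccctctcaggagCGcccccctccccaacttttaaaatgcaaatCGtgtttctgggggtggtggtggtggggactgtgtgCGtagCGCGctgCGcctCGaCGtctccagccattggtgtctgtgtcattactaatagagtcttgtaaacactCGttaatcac
Grik3: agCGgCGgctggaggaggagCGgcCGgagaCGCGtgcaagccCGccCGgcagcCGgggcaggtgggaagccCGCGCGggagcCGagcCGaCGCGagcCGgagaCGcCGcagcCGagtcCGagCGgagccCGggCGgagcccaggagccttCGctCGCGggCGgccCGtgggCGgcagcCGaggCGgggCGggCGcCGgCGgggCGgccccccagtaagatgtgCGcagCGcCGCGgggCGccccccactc
Wnt7a: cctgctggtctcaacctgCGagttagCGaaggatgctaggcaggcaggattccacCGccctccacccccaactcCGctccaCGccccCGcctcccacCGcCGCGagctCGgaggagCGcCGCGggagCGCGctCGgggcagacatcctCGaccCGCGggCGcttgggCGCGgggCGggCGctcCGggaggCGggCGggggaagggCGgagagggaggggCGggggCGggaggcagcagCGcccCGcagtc
C1qb: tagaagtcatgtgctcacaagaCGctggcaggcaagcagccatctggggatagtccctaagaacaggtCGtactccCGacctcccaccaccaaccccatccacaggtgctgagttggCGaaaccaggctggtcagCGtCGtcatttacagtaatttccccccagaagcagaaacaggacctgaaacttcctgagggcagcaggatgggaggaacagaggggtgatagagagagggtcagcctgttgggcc
Tnf: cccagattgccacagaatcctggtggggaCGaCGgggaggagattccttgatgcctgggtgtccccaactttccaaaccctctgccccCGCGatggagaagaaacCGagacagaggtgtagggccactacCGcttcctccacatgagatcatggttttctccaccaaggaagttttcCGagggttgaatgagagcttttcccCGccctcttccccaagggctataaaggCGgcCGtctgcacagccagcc
Ly9: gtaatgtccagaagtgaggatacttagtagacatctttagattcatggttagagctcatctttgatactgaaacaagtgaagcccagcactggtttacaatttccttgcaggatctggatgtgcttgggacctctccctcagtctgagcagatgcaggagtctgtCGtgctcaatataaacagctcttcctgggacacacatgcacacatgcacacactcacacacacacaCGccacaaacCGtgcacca

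Homeobox transcription factors, which set body axis and organ identity, contributed 78 of their 177 promoters (44.1%). Neuropeptides, hormones and their receptors contributed 40 of 96 (41.7%), ion channels and neurotransmitter receptors 91 of 272 (33.5%), and other developmental transcription factors 66 of 200 (33%). Secreted morphogens and their antagonists (31 of 141, 22%), collagens (8 of 44), cell adhesion and synapse proteins (35 of 196, 17.9%), and keratins with keratin-associated proteins (25 of 146, 17.1%) followed. These shares stand beside 6.53% of all promoters, and the lists were chosen with earlier results of these data known. At the other end were solute carriers (37 of 375, 9.87%), cytochrome P450 enzymes (6 of 94), chemokines and their receptors (2 of 59), olfactory and vomeronasal receptors (41 of 1434, 2.86%) and zinc finger proteins (4 of 395). Of the 35 genes of Polycomb complexes and H3K27 demethylases, Epop, a PRC2 cofactor, was the only Polycomb-only promoter (H3K27me3 in 9 of 10 diet libraries, H3K4me3 in 6 of 11), and H3K4me3 lay at 28 to 35 of them per library.

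**Figure D1:**
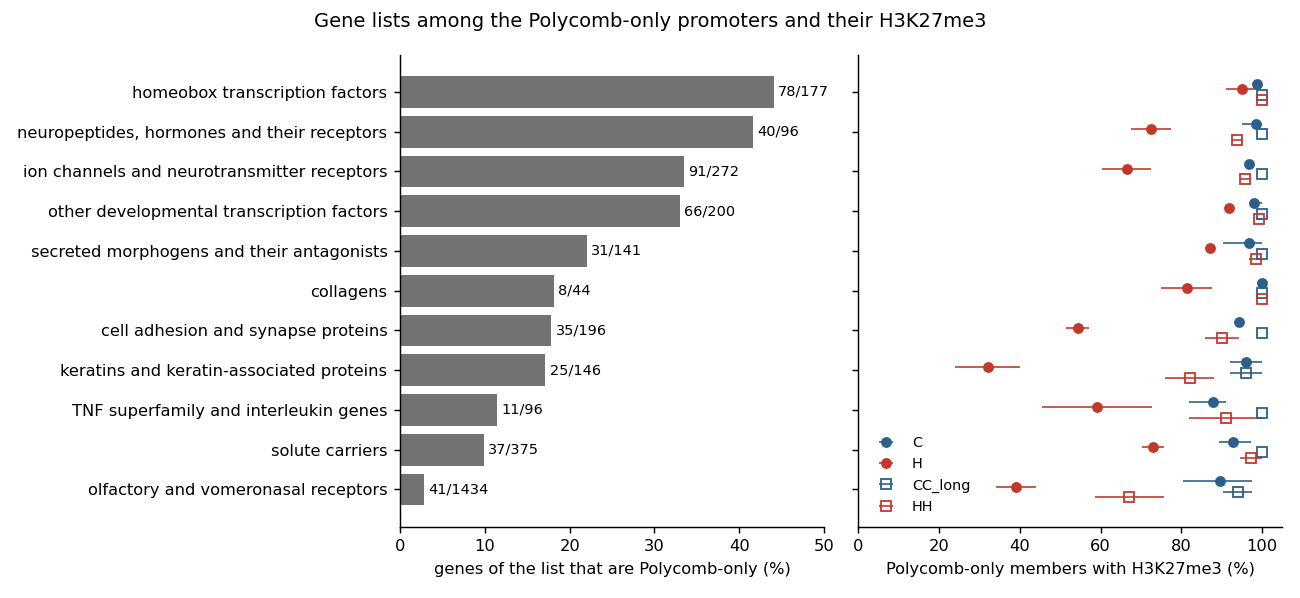
Left, bars give the percentage of each gene list that was Polycomb-only, with the counts beside them. Right, the percentage of these promoters with an H3K27me3 peak, as the mean (point) and range (line) of the libraries in C, H, CC_l and HH; homeobox promoters stayed above 90% in H, whereas keratin promoters were at 24 and 40%.

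Several lists of marker genes of other cells in fat also held Polycomb-only promoters. They were C1qa and C1qb of 24 macrophage markers, Cd3e of 19 lymphocyte markers, Sox17, Adgrl4, Robo4 and Erg of 15 endothelial markers, Dlk1 of 13 progenitor markers and Pdgfrb and Rgs5 of 10 mural markers. Bnc1, Krt19, Upk1b and Msln were among 10 mesothelial markers, Cdh1, Krt14, Grhl2, Krt7, Krt5 and Epcam among 10 epithelial markers, and Stmn2, Tubb3, Rbfox3 and Nefl among 10 neuron markers. The 4 neuron markers and Grhl2 and Epcam kept H3K27me3 in 9 or 10 of 10 diet libraries, while Krt14 kept it in 4 and Krt5 in 5.

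In base composition the set was mixed. A promoter was called CpG-rich when the 500 bp either side of its most upstream TSS had an observed to expected CpG ratio of at least 0.6 and a GC content of at least 50%. This held for 445 Polycomb-only promoters (31.2%), compared with 66.1% of bivalent promoters, 74.7% of those with H3K4me3 alone, 1.18% of those with neither mark and 46% of all promoters. The median GC content was 56.2% and the median CpG ratio 0.475. Homeobox promoters were CpG-rich in 56 of 78 cases, and keratin and olfactory receptor promoters in 0 of 25 and 0 of 41. In the 250 bases upstream, the GC box GGGCGG was found on either strand in 38.8% of Polycomb-only promoters and 41% of all promoters, the TATA box TATAAA in 9.19% and 11.4%, CCAAT in 33.2% and 36%, the E-box CACGTG in 6.38% and 6.6%, the AP-1 site TGACTCA in 3.72% and 3.91%, and the ETS core GAGGAA in 23.8% and 22.7%. The GC box overlaps what defines CpG-rich DNA, and it was present in 65.2% of CpG-rich and 26.8% of CpG-poor Polycomb-only promoters.

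By the rule, H3K27me3 was nearly complete in controls. It was present at 93.5, 93.7 and 97.6% of the Polycomb-only promoters in C, 93.8, 96.8 and 97.1% in CC_s, 99.4 and 98.8% in CC_l, and 95.9 and 98.2% in CCC. In the obese 12-week libraries it was present at 62.8 and 68.0% (H), and after WL at 81.1, 49.6 and 76.1% (HC). All 5 of these lay below every control library. The values of the 25-week cohort were 94.9 and 90.1% for HH and 83.4, 96.3 and 83.4% for HHC, so HH lay below CC_l and 1 of 3 HHC libraries lay between the CCC libraries. Over all promoters the presence of H3K27me3 did not show the same order, with means of 15.1% (C), 15.2% (H), 15.9% (CC_s), 14.4% (HC), 23.3% (CC_l), 23.8% (HH), 19.4% (CCC) and 22.8% (HHC). Presence was higher in H than in C at promoters with H3K4me3 alone (4.69 against 0.409%) and with neither mark (3.64 against 1.37%), also chosen on controls. The covered percentage over all promoters was lower, at 3.60% in H against 7.34% in C and 3.79% in HC against 7.24% in CC_s. Bivalent promoters, chosen on the same controls, also had H3K27me3 less often in diet groups, with means of 76.1% (H) against 91.8% (C), 72% (HC) against 95.1% (CC_s), 96.3% (HH) against 98.5% (CC_l) and 86.1% (HHC) against 96.4% (CCC), and the libraries overlapped in none of these. With each library reduced to its 21809 peaks of highest total signal, H libraries had H3K27me3 at 60.3 and 63.0% of the Polycomb-only promoters and C libraries at 89.8 to 92.4%.

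**Figure D2:**
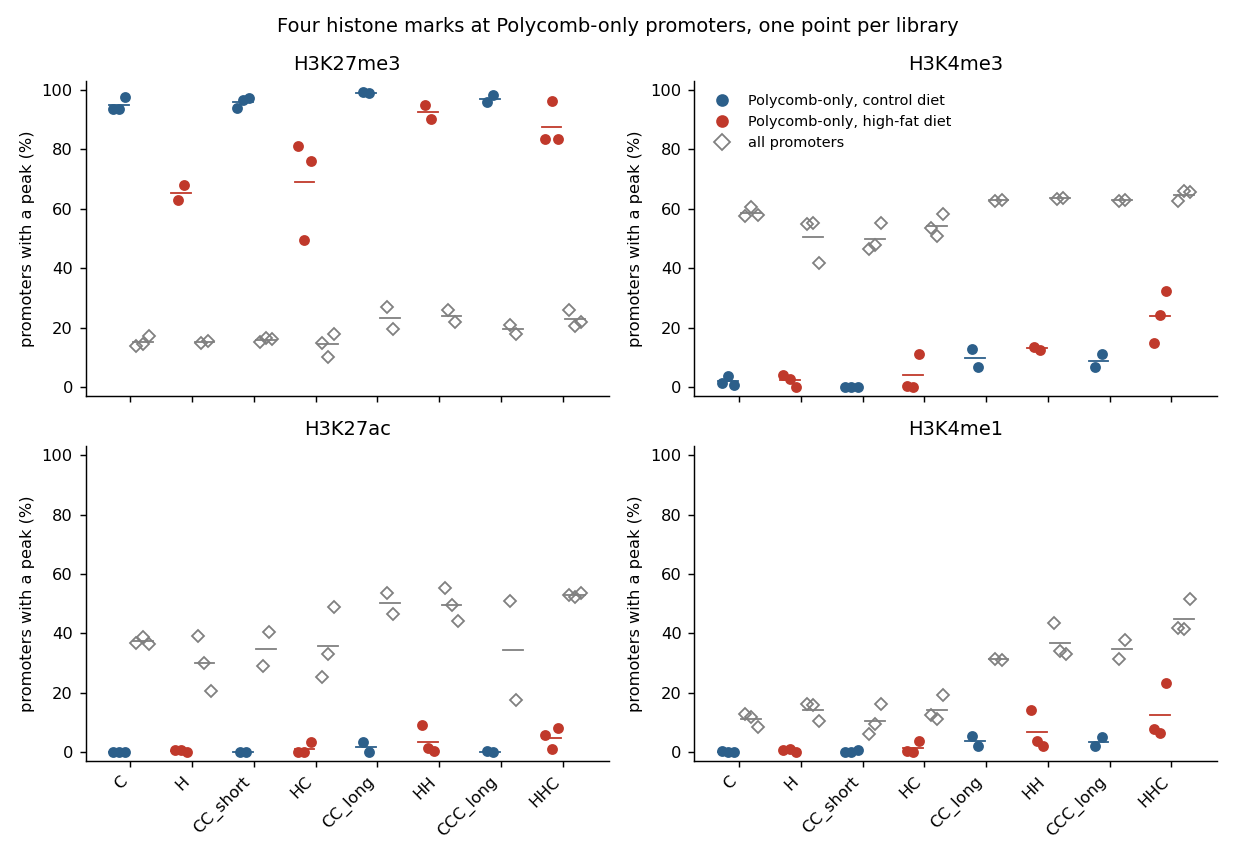
Percentage of promoters with a peak (vertical axis) in each library by group, 1 panel per mark. Filled points are the 1426 Polycomb-only promoters (blue, controls; red, diet groups), open diamonds are all promoters, and lines are group means; H3K27me3 in H (62.8 and 68.0%) and HC (49.6 to 81.1%) lies below all control libraries.

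Because the rule used the control libraries, the comparison was repeated with promoters chosen in the other cohort. The 1047 promoters that met the rule in all 25-week controls were measured in the 12-week cohort, whose libraries had no part in the choice. In C libraries, 88% ± 3.28 (SD, n = 3) of them had H3K27me3, and in the 2 H libraries 56.4 and 60.7%. For CC_s the value was 90.2% ± 2.80 (SD, n = 3), whereas for HC it was 64.0% ± 17.1 (SD, n = 3). H and HC did not overlap their controls (86.1 to 91.8% in C, 87.0 to 92.3% in CC_s, 44.3 to 75.5% in HC). On average H3K27me3 peaks covered 52.0% of these windows for C, 18.1% for H, 50.5% for CC_s and 21.7% for HC. In the reverse direction, the 1730 promoters chosen in the 12-week controls had H3K27me3 at 98.8 and 97.3% in CC_l, 95.9 and 92.1% in HH, 94.6 and 97.2% in CCC and 84.0 to 96.6% in HHC. HH again lay below CC_l, while HHC overlapped CCC. Averaged over the cohorts, diet minus control was -16.7 percentage points (pooled SD between replicates 7.86), with -27.8 in the 12-week cohort and -5.66 in the 25-week cohort. At equal numbers of peaks the 1047 promoters had H3K27me3 at 82.4 to 85.9% in C and at 54.4 and 56.2% in H.

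**Figure D3:**
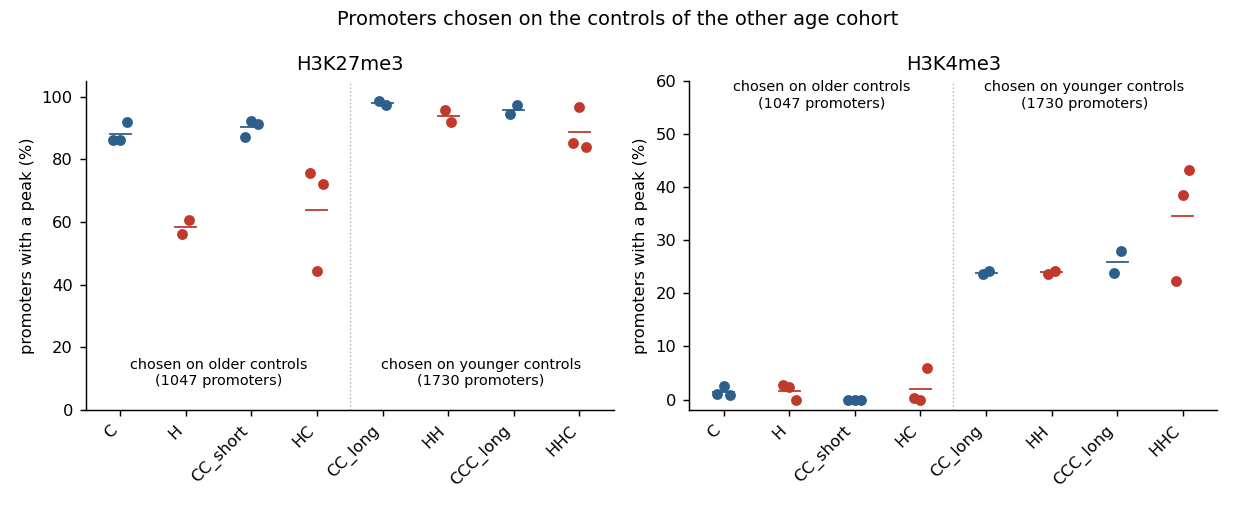
Percentage of promoters with H3K27me3 (left) and H3K4me3 (right) in each library, for promoters chosen only on the controls of the other cohort (1047 promoters measured in the 12-week groups, 1730 in the 25-week groups). Points are libraries and lines group means; H3K27me3 in H and HC lies at 44.3 to 75.5% against 86.1 to 92.3% in their controls, and H3K4me3 in HHC spans 22.3 to 43.2%.

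Peak width moved with the lower H3K27me3 share of the 12-week cohort, and its part in that share was not tested. The median H3K27me3 peak at Polycomb-only promoters was 1757, 1948 and 2318.5 bp wide in C, 710 and 753 bp in H, 1611 to 1794 bp in CC_s and 1037.5, 449 and 1116.5 bp in HC. The same was seen over all H3K27me3 peaks, with medians of 1097 to 1856 bp in control libraries, 549 and 592 bp in H and 795, 332 and 914 bp in HC. In the 25-week diet libraries the medians at Polycomb-only promoters were 1705 to 4000 bp, compared with 2138 to 4353 bp in CC_l and CCC. HC replicate 2, the library with the narrowest peaks, was also the one with H3K27me3 at 49.6% of the promoters.

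The promoters differed in how many diet libraries kept H3K27me3. In the 10 diet libraries the median promoter had H3K27me3 in 9. It was present in 10 of 10 at 450 promoters, in 5 or fewer at 249, in 3 or fewer at 71 and in none at 0. At the edge of the rule, the 154 promoters with H3K27me3 in 8 control libraries had it in 5.56 diet libraries on average, and the 188 promoters with 7, just outside the rule, in 4.99. Those with 10 control libraries (1078) had it in 8.41. For H3K4me3, the 974 promoters with none in controls had it in 0.584 of 11 diet libraries on average, the 167 with 2 in 3.34, and the 159 with 3, just outside the rule, in 3.88.

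By presence of a peak, CpG-rich promoters kept H3K27me3 in more diet libraries than CpG-poor ones. CpG-rich promoters carried it in 9.01 of 10 diet libraries on average (median 10) and CpG-poor ones in 7.33 (median 8). It was present in all 10 at 238 CpG-rich (53.5%) and 212 CpG-poor promoters (21.6%), and in 5 or fewer at 22 (4.94%) and 227 (23.1%). In H it was at 83.6 and 88.3% of CpG-rich and 53.4 and 58.8% of CpG-poor promoters, and in HC at 93.3, 71.0 and 87.9% against 75.5, 39.9 and 70.7%. The CpG-rich value was the higher in each of these 5 libraries. In the 12-week cohort the covered percentage differed from controls by similar amounts, in percentage points, in both classes. Mean values were 66.7% in C and 31.8% in H for CpG-rich promoters, and 50.3 and 15.1% for CpG-poor ones. They were 65.0% in CC_s and 31.5% in HC for CpG-rich promoters, and 48.8 and 19.6% for CpG-poor ones. For HH minus CC_l the difference was -4.87 percentage points at CpG-rich and -11.0 at CpG-poor promoters. For HHC minus CCC it was -5.45 and -4.00. The classes also differed in controls, where 88.8% of CpG-rich and 69.6% of CpG-poor promoters had H3K27me3 in 10 of 10 libraries. Among promoters with 10 of 10 in controls, it was in 5 or fewer diet libraries at 12 of 395 CpG-rich (3.04%) and 97 of 683 CpG-poor promoters (14.2%). CpG classes were formed after the data had been seen. Of the 71 promoters with H3K27me3 in 3 or fewer diet libraries, 7.04% were CpG-rich, and their GC box share was 15.5%, compared with 50.4% for the 450 that kept H3K27me3 in all diet libraries.

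**Figure D4:**
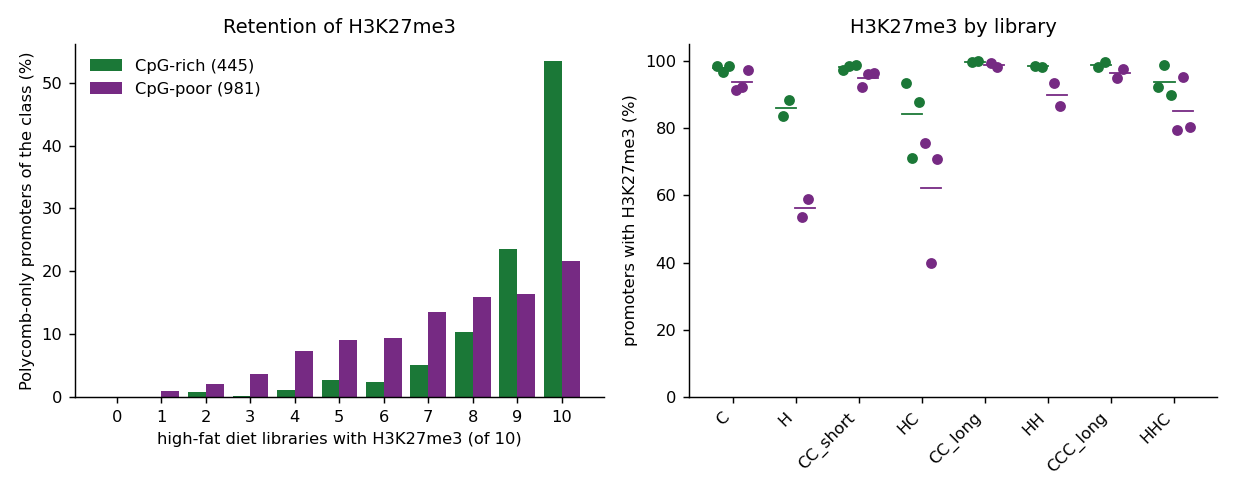
Left, bars count CpG-rich (445) and CpG-poor (981) Polycomb-only promoters as a percentage of their class by the number of the 10 diet libraries with H3K27me3. Right, points give the percentage of each class with H3K27me3 in each library by group; in H, CpG-rich promoters lie at 83.6 and 88.3% and CpG-poor promoters at 53.4 and 58.8%.

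By presence of a peak, the gene lists also differed, but not throughout in the order of their CpG-rich share. Homeobox promoters had H3K27me3 in 95.5% of diet libraries on average, with 58 of 78 in all 10 and 1 in 5 or fewer, and it was present at 91.0 and 98.7% of them in H, 83.3 to 97.4% in HC and 91.0 to 100% in HHC. Other developmental transcription factors (93.9%, 49 of 66 in all 10), morphogens (91.6%) and collagens (90%) were close to them. Neuropeptides, hormones and their receptors, with 5 of 40 CpG-rich, stood at 84%, with 67.5 and 77.5% in H. Ion channels and neurotransmitter receptors, with 33 of 91 CpG-rich, stood at 81.2%, with 60.4 and 72.5% in H. Cell adhesion and synapse proteins stood at 72.9%, with 51.4 and 57.1% in H. Genes of the tumour necrosis factor superfamily and interleukins (11 promoters) stood at 65.5%, with 0 of 11 in all 10. The lowest values were those of keratins (62.0%, 24.0 and 40% in H, 16 to 68.0% in HC) and of olfactory and vomeronasal receptors (56.8%, 34.1 and 43.9% in H, 29.3 to 61.0% in HC). The order over lists and the order over CpG classes share promoters and were not tested apart.

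Promoters that kept H3K27me3 without H3K4me3 are shown by the 164 with H3K27me3 in all 20 libraries and H3K4me3 in none of 21, of which 122 had no peak of any of the 3 other marks in any library. Besides Cdx2, Grik3 and Wnt7a they included Tlx1 (a homeobox factor of the spleen), Hand1 (a bHLH factor of heart and placenta), Asic4 (an acid-sensing ion channel family member), Fgf3 (a fibroblast growth factor), Crhr1 (the receptor of corticotropin-releasing hormone), Galr1 (a galanin receptor), Lrrc4b and Syt13 (synaptic proteins), Slc18a3 (the vesicular acetylcholine transporter), Slc6a5 (a glycine transporter), Krt87 (a hair keratin), Col26a1 (a collagen) and Dlk1 (a marker of preadipocytes). Cdx2, Tlx1, Hand1, Asic4, Slc18a3 and Dlk1 had an H3K4me1 peak in at least 1 library. Presence does not show breadth, which is given below for Cdx2, Grik3 and Wnt7a.

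The windows of Cdx2 were covered by H3K27me3 peaks at 100, 100 and 93.9% in C, 26.9 and 75.4% in H, 84.4, 79.5 and 80.3% in CC_s, 80.1, 33.6 and 48.7% in HC, 92.7 and 93.8% in CC_l, 100 and 89.3% in HH, 100 and 100% in CCC, and 100, 100 and 34.9% in HHC. Both H libraries were below the C libraries, whereas HC and HHC overlapped CC_s and CCC. Wnt7a was covered at 90.4, 100 and 100% in C, 49.8 and 38.4% in H, 100% in each CC_s library, 91.8, 33 and 41.3% in HC, 100 and 100% in CC_l, 100 and 95.3% in HH, 96.3 and 100% in CCC, and 100, 89.1 and 85.7% in HHC. Here H and HC did not overlap their controls, while HH and HHC did. Grik3, the promoter printed above with the most CpG, was covered at 66.0, 88.8 and 79.5% in C and 17.1 and 43% in H, at 79.2, 89.1 and 83.2% in CC_s and 63.9, 14.7 and 49.0% in HC, and at 79.5 to 89.5% in the 25-week libraries. Grik3 and Wnt7a had no peak of the other marks in any library, and Cdx2 had 1, of H3K4me1 in CC_l replicate 1.

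In a limma fit of the covered percentage over all 7872 promoters with an H3K27me3 peak in at least 2 libraries, all 1426 Polycomb-only promoters passed this filter. Against C, limma called 265 lower and 0 higher in H (all promoters: 5.42% lower, 0.0508% higher). Against CC_s, 226 were lower and 0 higher in HC (5.14% and 0.0%). HH had 6 lower (0.572%) and 0 higher (0.305%) than CC_l, and HHC had 9 lower (0.661%) and 3 higher (0.572%) than CCC. At an unadjusted p under 0.05, 1, 0 and 11 were higher in H, HC and HH. These comparisons use the controls that chose the promoters, so the counts are a description. Of the promoters lower in H and HC, 10 and 19 belonged to the 78 homeobox genes, 14 and 13 to the 66 other developmental factors, 30 and 19 to the 91 ion channels and neurotransmitter receptors, and 5 and 3 to the 25 keratins. Over the whole set 18.6% were lower in H and 15.8% in HC. In HC the homeobox share lay above that of the set and the keratin share below it, unlike the order of the lists by presence. In H they lay the other way. The promoters of Jakmip1, Qprt and Cyp26c1, a retinoic acid-degrading enzyme, were lower in both HH and HHC.

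WL against obese libraries, a comparison that the rule did not use, gave few calls. In HC against H, limma called 0 Polycomb-only promoters (0.0% of all promoters in either direction), and at an unadjusted p under 0.05 19 were higher and 17 lower. H3K27me3 was present at 68.9% ± 16.9 of the promoters in HC (SD, n = 3) and at 65.4% ± 3.67 in H (SD, n = 2), and the libraries overlapped. In HHC against HH, Klk1b5, of a kallikrein family with close copies, was higher (84.0 against 23.9% covered, limma adjusted p = 0.0496, 0.165% of all promoters higher), and Tdgf1, a Nodal co-receptor (7.76 against 96.6%, adjusted p = 0.0141), and Tbx21, the T-cell factor T-bet (19.4 against 100%, adjusted p = 0.0408), were lower (0.305% of all promoters). These shares of the 1426 (1 and 2 promoters) were no larger than those of all promoters. The 3 calls changed with single libraries, and the count was 1 without C replicate 1, H replicate 1, CC_s replicate 3, HC replicate 1, C replicate 2, HH replicate 2 or HHC replicate 3, 7 without HHC replicate 1, 16 without HH replicate 3 and 24 without HHC replicate 2. H3K27me3 was present at 87.7% ± 7.45 of the promoters in HHC (SD, n = 3) and at 92.5% ± 3.37 in HH (SD, n = 2), which overlapped.

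H3K4me3 was rare at these promoters in the 12-week cohort and more frequent in the 25-week cohort, in controls as well. It was present at 1.40, 3.86 and 0.842% of them in C, 3.93, 2.81 and 0.0701% in H, 0% in the 3 CC_s libraries, 0.491, 0 and 11.2% in HC, 12.7 and 6.80% in CC_l, 13.5 and 12.6% in HH, 6.80 and 11% in CCC, and 14.7, 24.4 and 32.4% in HHC. The HHC libraries lay above those of CCC, H overlapped C, and HH overlapped CC_l. With each library reduced to 11249 peaks these values were far smaller, and H3K4me3 was present at 1.89, 0.351 and 2.95% in HHC, 0 and 0.0701% in CCC, and 0.771 and 0.14% in HH. With the rule reapplied without the 4 libraries of uncertain group, 1464 promoters were left, with 8.88% in the remaining CCC library and 14.5, 26.0 and 33.5% in HHC. For promoters chosen in the 12-week controls (1730), HHC (22.3, 38.4 and 43.2%) overlapped CCC (23.9 and 28%). Diet minus control over promoters chosen in the other cohort was 2.76 percentage points, below the pooled SD between replicates of 4.61.

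No peak of H3K4me3 in any of 21 libraries was found at 701 Polycomb-only promoters, and 273 had one in no control but at least 1 diet library. H3K4me3 was present in at least 5 of 11 diet libraries at 118. The rule kept H3K4me3 rare in controls, so these counts are a description, given without the counts of other promoters. Promoters with neither mark also had H3K4me3 more often in HHC (mean 7.78%) than in CCC (1.84%), without overlap. Kcnn3, a calcium-activated potassium channel, had H3K4me3 in the most diet libraries, 9 of 11. Its windows were covered at 0% in the C libraries, 10.6, 5.65 and 0% in H, 10.5, 0 and 22% in HC, 27.9 and 0% in CC_l, 22.8 and 54.6% in HH, 0% in both CCC libraries, and 26.3, 62.7 and 59.1% in HHC, while H3K27me3 was present in all 20 libraries. Pou2f2, a B-cell factor, had H3K4me3 in 8 diet libraries (76.4 and 61.8% covered in HH, 83.2, 84.4 and 72.5% in HHC) and H3K27me3 in 9 of 10. At these promoters H3K4me3 was not limited to promoters that lacked H3K27me3. Comparing H3K4me3 and H3K27me3 libraries of the same group and replicate number, H3K4me3 was more frequent at Polycomb-only promoters without H3K27me3 than at those with it in 3 of 10 diet pairs, at 5.28 against 3.13% in H replicate 1, 2.85 against 2.78% in H replicate 2 and 33.3 against 32.2% in HHC replicate 3.

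Of the 1426 promoters, 500 had H3K4me3 in at least 2 libraries and entered the H3K4me3 fit of 15005 promoters, and 926 did not. A promoter that enters through the group where it is marked has to differ, and the counts are read beside those of all promoters. Against controls, BC107364 was higher and Krt19 lower in H (0.0133% and 15.7% of all promoters), 0 were called in HC (0.0%, and 0 at an unadjusted p under 0.05), 12 were higher in HH (0.62%), and 59 were higher and 3 lower in HHC (2.38% and 0.48%). The rule used these controls. Without the 4 libraries of uncertain group, 21 were higher and 1 lower in HHC (0.664% and 0.136%), with the groups of the treatment field 17 and 0 (0.413% and 0.04%), and the HH comparison could not be made without them. By the treatment field limma called 0 higher in HH (0.0133%), with 21 higher and 24 lower at an unadjusted p under 0.05. At equal numbers of peaks 22 of the 1426 entered the fit, of which 1 was higher in HH (0.752%) and 2 in HHC (1.9%). The 59 included 6 homeobox and 4 other developmental transcription factor promoters, Tnf and Tbx21.

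In HC against H, limma called 0 of the 500 promoters for H3K4me3 (0.0% of all promoters, and 0 higher and 3 lower at an unadjusted p under 0.05). In HHC against HH, 19 were higher (0.54%) and 3, Msi1, Kcna5 and Gm10409, lower (0.133%). Pdcd1, the immune checkpoint receptor PD-1, was covered at 92.5, 60.1 and 23.5% in HHC and 0% in both HH libraries. Tbx21 was covered at 81.1% on average in HHC and 29.6% in HH (adjusted p = 0.00123). Ccn4, a matricellular protein of the Wnt pathway, was covered at 28.3, 30.2 and 71.2% in HHC and 0% in HH. Pdcd1 and Ccn4 entered the fit only through HHC, so their values are a description and no p is given for them. Other promoters with higher H3K4me3 included those of the transcription factors Runx3, Prdm12, Hmx3, Nkx2-3 and Utf1. Both HH libraries are among those of uncertain group, and the 22 calls became 5 without either of them, 83 without HHC replicate 1, 44 without HHC replicate 2, 12 without C replicate 1 or 3 or CC_s replicate 1 or 2, and 14 without H replicate 2 or HC replicate 1 or 2. With the groups of the treatment field 46 were higher (1.63%) and 3 lower (0.293%), and at equal numbers of peaks limma called 0 of 22 (0.471% and 0.281% of all promoters), with 8 higher and 1 lower at an unadjusted p under 0.05.

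H3K27ac was scarce. No peak lay at 1154 of the 1426 promoters in any of 21 libraries, and H3K27ac was found at 0% of them in the 3 C and 2 CC_s libraries, 3.58 and 0.210% in CC_l, 0.491 and 0% in CCC, 0.912, 0.701 and 0% (H), 0, 0 and 3.58% (HC), 9.05, 1.33 and 0.281% (HH), and 5.68, 1.12 and 8.06% (HHC). HHC did not overlap CCC, whereas HH overlapped CC_l. Diet minus control was 2.02 percentage points, below the pooled SD of 2.56, with 0.865 in the 12-week and 3.18 in the 25-week cohort. The SD was pooled over both cohorts. HH and HHC replicates spread more widely than those of the 12-week groups, so it is no measure for the 25-week cohort alone. Over all promoters H3K27ac was also more frequent in HHC (mean 52.9%) than in CCC (34.3%), without overlap, and with each library reduced to 12174 peaks HHC stood at 1.82, 0 and 1.19%. Of the promoters, 112 entered the H3K27ac fit and 1314 did not. limma called 0 in H (0.0% of all promoters higher, 5.01% lower) and 0 in HC (0.0%), each with 0 at an unadjusted p under 0.05, and 0 in HH (0.0979% higher, 0.0377% lower), with 4 higher and 1 lower at an unadjusted p under 0.05. An exact permutation test of presence in obese against control libraries also gave 0 at an unadjusted p under 0.05 (0.173% of all promoters higher, 0.354% lower). Against CCC, 4 were higher in HHC, which is 3.57% of those tested beside 5.01% of all promoters, and 0 lower (0.0602%). In HHC against HH 0 were called (0.151% higher, 0.00753% lower), with 16 higher and 1 lower at an unadjusted p under 0.05.

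The 4 were Gm10160, Tnf, its neighbour Lta, which encodes lymphotoxin and shares part of its windows, and Gpr55, a lysophospholipid receptor. The windows of Tnf were covered by H3K27ac at 100, 45.8 and 64.6% in HHC and 0 and 0% in CCC (limma adjusted p = 0.0482), and at 71.4, 0 and 0% in HH. Gm10160, a predicted gene whose windows overlap those of Tm6sf1, was covered at 100, 55.6 and 55.1% in HHC and 0% in both CCC libraries (adjusted p = 0.0116). Gpr55 had means of 32.6 and 0% and Lta of 40.8 and 0%, and both entered the fit only through HHC. HHC and CCC did not overlap at Tnf or Gm10160. The calls changed with single libraries, with 0 left without CCC replicate 3 (which leaves 1 CCC library, assumed to vary like the other groups), 2 without HHC replicate 1 and 28 without HHC replicate 2, and Tnf passed the threshold in 11 of 27 alternatives.

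No H3K4me1 peak lay at 922 promoters in any of 22 libraries. It was present at 0.0701 to 0.281% of the 1426 in C, 0 to 0.631% in CC_s, 0.912, 1.19 and 0% in H, 0.351, 0.210 and 3.79% in HC, 5.54 and 2.10% in CC_l, 14.4, 3.86 and 2.10% in HH, 2.17 and 5.05% in CCC, and 7.78, 6.38 and 23.4% in HHC. HHC lay above CCC, and HH overlapped CC_l. Diet minus control was 3.40 percentage points, below the pooled SD of 4.52, with 0.865 in the 12-week and 5.94 in the 25-week cohort. This SD, too, was pooled over both cohorts. Replicates of HH and HHC spread more widely than those of the 12-week groups, so it is no measure for the 25-week cohort alone. Over all promoters the means were 44.9% for HHC and 34.7% for CCC, and 36.8% for HH and 31.3% for CC_l, without overlap in either pair. With each library reduced to 14486 peaks HHC stood at 2.52, 0.561 and 5.61%.

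In the H3K4me1 fit, which 254 of the promoters entered and 1172 did not, limma called 0 in H and 0 in HC (0.0% of all promoters, and 0 at an unadjusted p under 0.05). Against CC_l, 2 were higher (2.34%) and 2 lower (0.667%) in HH. Against CCC, 26 were higher (10.6%) and 8 lower (1.6%) in HHC. The 26 were 10.2% of those tested, near the share of all promoters, and the 8 were 3.15%. An exact permutation test of presence left 0 after Benjamini-Hochberg adjustment, with 1 higher in obese (0.731% of all promoters) and 1 lower in WL libraries (0.0715%) at an unadjusted p under 0.05, where the smallest p it can give is 0.005, so that hardly any promoter could pass the adjustment. The 35 promoters called in HH or HHC became 14 without CCC replicate 3 (again with 1 CCC library left), 18 without HHC replicate 3 and 76 without HHC replicate 2. In HC against H 0 were called, also at an unadjusted p under 0.05. In HHC against HH 17 were higher, 6.69% of those tested beside 9.73% of all promoters, and 0 lower (0.302%).

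The promoters higher for H3K4me1 in HHC included those of Mmp9, Wnt1, Wnt10b and Pdcd1. Mmp9, the matrix metalloprotease of leukocytes, had means of 78.8% in HHC and 0% in CCC. Wnt1 (43.3%), Wnt10b, a Wnt ligand that holds back adipogenesis (42.8%, limma adjusted p = 0.0213), and the homeobox factor Rax (57.3%) were also at 0% in CCC. Pdcd1 was covered at 98.4, 56.2 and 55.1% in HHC, 64.1, 0 and 45.2% in HH, 0, 19.2 and 0% in H and 0% in all controls (HHC against CCC, adjusted p = 0.00278). Aatk, a kinase of neurons, was covered at 49.5, 22.4 and 69.6% in HHC, 26.3, 23.2 and 45% in HH and 0% in all controls (adjusted p = 0.00676). Ccn4 was covered at 60.3, 31.7 and 34.5% in HHC. At Pdcd1 and Aatk the HHC and CCC libraries did not overlap. Slamf8, a receptor of macrophages, was covered at 88, 0 and 83.3% in HHC and Ebi3 at 48.4, 0 and 56.1%. Each had 1 HHC library at the level of the controls. Mmp9, Wnt1, Rax, Ccn4, Slamf8 and Ebi3 entered the fit only through HHC, so their values are a description and no p is given for them.

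The promoters lower for H3K4me1 in HHC included those of Dcc, Rimbp2 and Car10. Dcc, the netrin receptor, was covered at 28.2 and 24.8% in CC_l, 17.2 and 23.7% in CCC and 0% in every diet library (HH against CC_l, limma adjusted p = 0.00829; HHC against CCC, adjusted p = 0.0147). Rimbp2, a presynaptic protein, was covered at 20.1 and 33.5% in CCC and 0% in every diet library (adjusted p = 0.00973). The groups did not overlap at either promoter, and the calls were lost without CC_l replicate 1 (Dcc in HH) or CCC replicate 3 (both in HHC), each of which leaves 1 library in its group. Car10 (53.0% in CCC), Gabra2, a GABA receptor subunit (48.3%), Nell1 (42.6%) and Npbwr1, a neuropeptide receptor (53.4%) were at 0% in HHC, and entered the fit only through CCC. Fam181a, at 34.7 and 42% in CCC and 0, 29.7 and 0% in HHC, passed at an adjusted p of 0.0473 and in 11 of 28 alternatives. Ntsr1, a neurotensin receptor, had H3K4me1 in 7 of 10 control and 4 of 12 diet libraries and was not called.

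Some promoters had both few H3K27me3 peaks and many H3K4me3 peaks in diet libraries. At 20 of the 1426, H3K27me3 was present in 5 or fewer diet libraries and H3K4me3 in 5 or more, and 19 of the 20 were CpG-poor. These values chose them and are a description, given without the count of other promoters. They were Gm10160, Ly9, Fcgr2b, C1qb, Tnf, Cd40, Cd33, Robo4, Gm21188, Tnfrsf13b, Shtn1, Ebi3, Cd300ld3, Vsig2, Tnfsf9, Dgkb, Gm2897, Myct1, Agap2 and Cfap58. They include genes of immune cells, such as the inhibitory Fc receptor Fcgr2b, the costimulatory receptor Cd40 and the sialic acid receptor Cd33, and Robo4 is a receptor of endothelial cells.

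**Figure D5:**
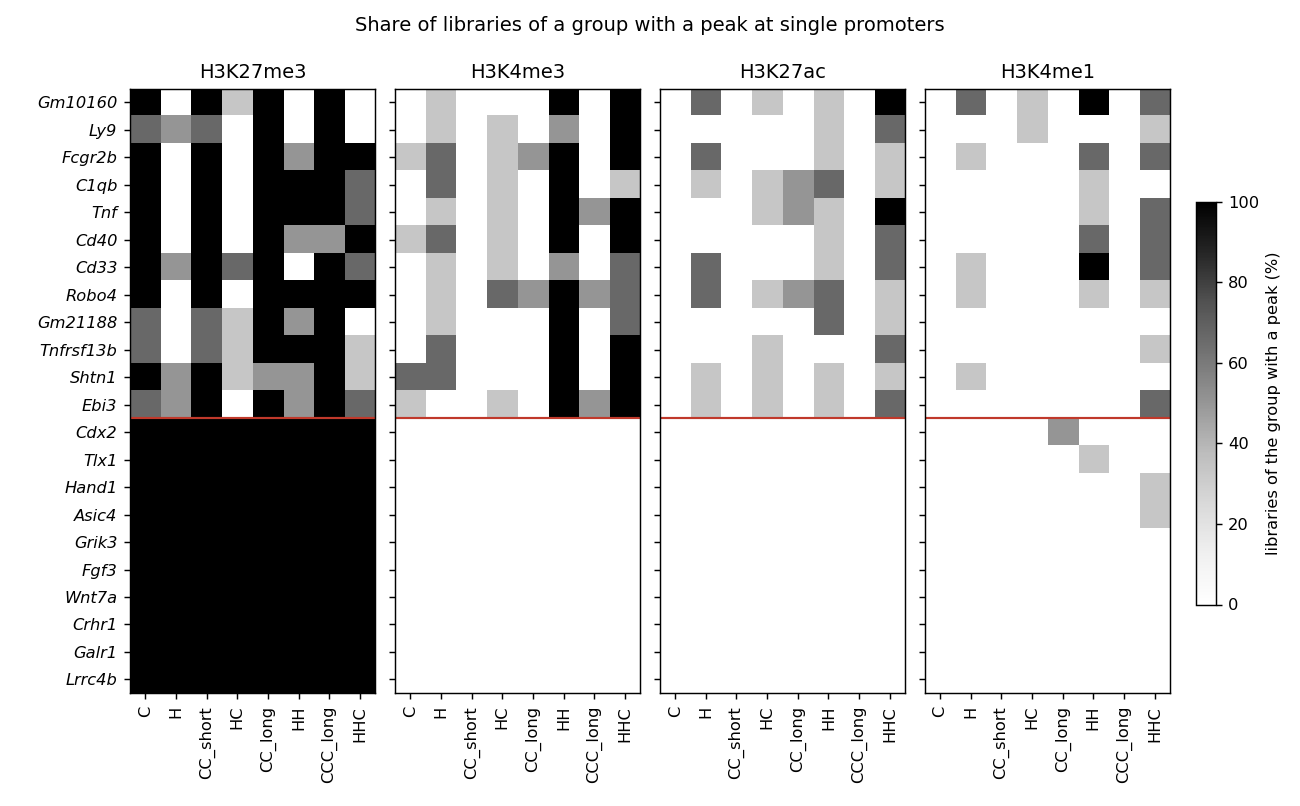
Share of the libraries of a group with a peak (grey scale in %, white for none to black for all) for 12 promoters with H3K27me3 in 5 or fewer and H3K4me3 in 5 or more diet libraries (above the line) and 10 that kept H3K27me3 without H3K4me3 (below), in 4 marks and 8 groups. The upper promoters except Cd33 have H3K27me3 in few H and HC libraries. They show H3K4me3 in HH and HHC, and in 2 of 3 H libraries at Fcgr2b, C1qb, Cd40, Tnfrsf13b and Shtn1. The lower promoters show H3K27me3 in every group and H3K4me3 in none.

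At Tnf, H3K27me3 covered 35.3, 55.2 and 17.1% in C, 0 and 0% in H, 12.1, 4.87 and 12.9% in CC_s, 0% in the 3 HC libraries, 43.7 and 53.6% in CC_l, 64.0 and 25.9% in HH, 39.5 and 86.6% in CCC and 31.2, 67.7 and 0% in HHC. H3K4me3 covered 0, 27.3 and 0% (H), 0, 0 and 18.6% (HC), 56.8 and 71.6% in HH, 17.7 and 0% in CCC and 100, 76.1 and 83.5% in HHC. H3K27me3 was missing in the 12-week diet groups, and H3K4me3 was broadest in HH and HHC, where H3K27me3 was still present in 4 of 5 libraries. At C1qb, whose sequence is printed above, H3K27me3 covered 5.77, 11.2 and 27.3% in C, 0% in both H and all 3 HC libraries, 76.0 and 22.3% in HH and 0, 18.2 and 53.0% in HHC. H3K4me3 covered 27, 18.1 and 0% of it in the H libraries, 0, 0 and 20.2% in those of HC, 91.0 and 45.4% in HH, 65.3, 0 and 0% in HHC and 0% in all controls. Ly9 had H3K27me3 in 8 control libraries and in 1 diet library, where it covered 6.08%, and H3K4me3 at 18.5, 0 and 0% (H), 0, 0 and 19.3% (HC), 46.3 and 0% (HH), and 42.6, 34.3 and 25.6% (HHC).

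At Gm10160 all 3 active marks were seen in diet libraries only. It had H3K27me3 in 10 control libraries and 1 diet library, and H3K4me3, H3K27ac and H3K4me1 in 0 control libraries and in 6, 7 and 8 diet libraries. H3K4me1 covered 18.2, 41.8 and 0% of its windows in the H libraries, 0, 0 and 16.8% for HC, 71.7, 61.8 and 62.7% for HH, and 83.4, 0 and 100% for HHC. All 3 HH libraries stood above CC_l. In HHC against CCC the limma adjusted p was 0.0421 and was under the threshold in 10 of 28 alternatives. Cd300c2, Slamf8, the olfactory receptor Olfr47 and H2-Eb2 also had H3K27me3 in 1 diet library, with H3K4me3 in 4, 2, 0 and 0. Adgrl4, an endothelial receptor, had H3K4me3 in 0 control and 8 diet libraries with H3K27me3 in 6, and Pdgfrb, the receptor of mural cells, had H3K4me3 in 2 and 8 with H3K27me3 in 7. Adgrv1, an adhesion receptor of sensory cells, had H3K27ac in 5 diet and 0 control libraries and kept H3K27me3 in 9 of 10.

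By median, H3K4me3 was present at more markers of immune and endothelial cells in diet than in control libraries. H3K4me3 was present at 0 to 9 of 24 macrophage markers in control libraries (median 4.5) and at 0 to 20 in diet libraries (median 16), with 16, 18 and 0 (H), 1, 0 and 10 (HC), 18 and 17 (HH), and 20, 17 and 15 (HHC). For 19 lymphocyte markers the ranges were 0 to 3 (median 1) in controls and 0 to 18 (median 6) in diet libraries, and for 15 endothelial markers 0 to 11 (median 5.5) and 0 to 14 (median 12). Among macrophage markers Clec4n and Cd163 had no H3K4me3 in any library, as had Ncr1 of the lymphocyte and Vwf of the endothelial markers. C1qa, C1qb, Cd3e, Robo4, Adgrl4, Sox17 and Erg stand both in these lists and in the set. Among HHC libraries, the H3K4me3 share of Polycomb-only promoters was lowest in replicate 1 and highest in replicate 3. From replicate 1 to 3, H3K4me3 was present at 20, 17 and 15 macrophage markers. The counts were 18, 12 and 14 for lymphocyte markers and 8, 12 and 13 for endothelial markers. In H the library with 0 macrophage markers had the lowest share, and in HC the library with 10 had the highest share. The part of such cells in the H3K4me3, H3K27ac and H3K4me1 of Polycomb-only promoters was not tested.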

How the data were processed

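CUT&Tag libraries of 84 samples, 4 marks and 8 groups were used. The authors trimmed reads (Trim Galore 0.6.6), aligned them to mm10 (Bowtie2 2.4.4), made coverage tracks (SAMtools 1.13, bedtools 2.30) and called peaks in each library with SEACR 1.3 (stringent mode, threshold 0.01, which keeps the top 1% of signal blocks), per the labels and methods. The deposited signal of a peak is unscaled coverage and was used only to rank peaks within a library. Replicates were not pooled. Peak lists hold no read counts, so a count test was not run, and depth is unknown.

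Groups came from the titles. Presence was an overlap of at least 1 bp, and the covered percentage was that of the union of the windows of a gene. It was fitted with limma 3.58.1 (R 4.3.3) over the 8 groups in 1 model per mark, for promoters with a peak in at least 2 libraries, with Benjamini-Hochberg adjustment over all of them and a threshold of 0.05. Some fits had promoters with no variance. Covered percentages are bounded and often 0, and p-values measure the spread between biological replicates. Exact permutation tests of presence were two-sided, within cohorts. Shares were compared by their libraries and pooled SD, with no test. Sequences were read from the NCBI RefSeq copy of the GRCm38 assembly with pysam 0.24.0. Python 3.11.15, numpy 2.4.6, pandas 2.3.3, statsmodels 0.14.6 and matplotlib 3.10.9 were used. The fit was tested on simulated data.

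The members and lists were chosen with earlier results of these data known, and CpG classes after seeing the data. Named promoters were, per gene list, up to 2 with H3K27me3 in all libraries and no H3K4me3, ordered by H3K27me3 signal rank; the 6 with H3K27me3 in the fewest diet libraries; the 6 with H3K4me3 in the most; the 6 with the largest gain of H3K27ac; the 4 highest and 4 lowest differences of H3K4me1; the 6 with the largest sum of H3K27me3 loss and gain of H3K4me3 and H3K27ac; and those in marker and Polycomb lists. Promoters named only for a call were chosen after their values were seen. Within a mark, replicate numbers did not pair diet with control libraries. Correlations of deviations over 36 such pairs ran from -0.430 to 0.192, of which 6 exceeded 0.1. Across marks, the paper describes paired assays of the same fat depot.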

Additional observations from a re-analysis of the deposited data

How the results depend on the processing

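The member count was 1118 with thresholds of 0.9 and 0.1 of the control libraries, 1786 with 0.7 and 0.3, 2058 at equal peak numbers, and 1259 to 1426 when 1 library was left out. H3K27me3 over promoters chosen in the other cohort kept its direction under every alternative, from -18.2 to -14.3 percentage points when 1 library was left out, and -30.7 to -22.9 in the 12-week and -7.66 to -4.49 in the 25-week cohort. With windows of 500 bp the 12-week value was -37.5. Left-out libraries gave 1.69 to 4.30 points for H3K4me3 (0.183 to 1.66 and 2.24 to 7.46 in the 2 cohorts), 1.34 to 2.50 for H3K27ac (0.269 to 1.16 and 1.81 to 4.14) and 2.04 to 4.17 for H3K4me1 (0.281 to 1.17 and 3.21 to 7.47). WL minus obese for H3K27me3 ran from -3.71 to 4.17 (-2.59 to 13.1 and -9.12 to -2.43), where the sign turned in 5 of 84 cases, all within the spread between replicates.

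Counts of called promoters were less steady. The set was chosen anew under each alternative. For H3K27ac, 4 became 0 with 500 bp, 8 at equal peak numbers, 7 with 0.7 and 0.3, 9 with the replicate block, 0 in the exact test of presence, and 0 to 28 when 1 library was left out. For H3K4me1, 35 became 17 with 500 bp, 19 with 0.9 and 0.1, 55 with 0.7 and 0.3, 57 with the replicate block, 19 without the filter, 0 in the exact test, and 14 to 76 when 1 library was left out. For H3K27me3 in WL against obese, 3 became 10 at equal peak numbers, 0 with the replicate block, 1 without the filter and 1 to 24 when 1 library was left out. For H3K4me3 in WL against obese, 22 became 9 at equal peak numbers, 36 with the treatment field, 15 with the replicate block and 5 to 83 when 1 library was left out, and no value could be had without the 4 libraries of uncertain group. The exact test could hardly pass the adjustment, so its 0 says nothing about stability. Since replicate numbers did not pair diet with control libraries, the block tests only a shared number. The causes were not tested. Depth limits every absence of a peak, which says only that a site was outside the top 1% of signal blocks.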

Other observations

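Of the 1426, 526 (36.9%) were next to another one in gene order, and 18 runs of 4 or more occurred. Evx2 to Hoxd10 (5 promoters, H3K27me3 in 9.8 of 10 diet libraries on average) and Hoxa10 to Evx1 (4 promoters, 9.75) belonged to homeobox clusters and kept H3K27me3. Klk10 to Klk6, a kallikrein run of 5, averaged 7.4, Krt5 to Krt73, a keratin run of 4, 4.75, and Cd300ld to Cd300ld4, a run of 4 myeloid receptor genes, 3. The longest run, 8 promoters from Gm21698 to Gm10220 on chromosome 5, averaged 4.5. By chromosome, 10.2% of promoters on chromosome 15 and 9.05% on chromosome 1 were Polycomb-only, compared with 1.90% on X and 0 of 183 on Y. The share of neighbours was not computed for other promoters. Neighbours share peaks and near-identical copies share reads, so runs are not independent promoters.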
